A study of Mus musculus with 19 samples.

Results

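The genes described here are the mouse Wnt ligands, the Frizzled receptors and Lrp5 and Lrp6 co-receptors that bind them, and the secreted proteins that keep ligand and receptor apart (the Sfrp, Dkk, Frzb and Wif1 genes), with Axin2 and Lef1, a transcriptional target and a nuclear partner of the pathway. They were chosen by the gene name printed beside each probe of the array, and each gene was read by the probe with the highest mean signal over all arrays. The array held 43 such genes among 27793 gene names, on 60 of its 41174 probes. They were 19 Wnt ligands, 10 Frizzled receptors, 2 co-receptors, 10 secreted inhibitors, and Axin2 with Lef1.

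Wnt proteins are lipid-modified signals that bind a Frizzled receptor and, in the canonical branch, an Lrp co-receptor, which stops the destruction complex from degrading β-catenin so that it can activate genes with TCF and LEF factors. Other ligands, such as Wnt5a and Wnt11, are best known for β-catenin-independent routes that act on cell polarity and calcium. In skeletal muscle, Wnt signals are known for roles in the specification of myogenic cells, the fate of satellite cells and the balance between myogenic, fibrogenic and adipogenic programmes.

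The study examined the class IIa histone deacetylases HDAC4 and HDAC5 in skeletal muscle, in cells and in obese mice. RNA was measured on 19 single-colour whole mouse genome arrays. C2C12, an established line of mouse myoblasts, had been made into stable lines with plasmids for human wild-type HDAC4 and HDAC5 (HDAC4&5, 6 arrays) or with empty plasmids (WT, 6 arrays), all under selection with 500 µg/mL hygromycin B and 500 µg/mL geneticin, and cells were harvested as myoblasts 48 h after seeding. Soleus, a slow hindlimb muscle, came from male mice of 12 weeks on a C57BL6J background that had been fasted for 5 h. The mice were db +/+, homozygous for the leptin receptor mutation and obese (db, 4 arrays), or heterozygous db -/+ littermates (Con, 3 arrays), so that the controls also carried 1 mutant allele. The labels do not say whether a C2C12 group was 1 clone or a mixed population, and the db mutation acts in the whole animal. The study's methods give fewer biological replicates per group than the labels list arrays, for both cell groups and for db soleus. The p-values below therefore measure the spread between arrays, part of which may be technical.

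Levels are given as log2 of the processed signal minus log2 of the 75th percentile of the same array, so that a level of 0 lies at that percentile and 1 unit is a doubling. The 75th percentile was 564 to 1691 signal units in WT, 494 to 873 in HDAC4&5, 153 to 555 in Con and 180 to 686 in db arrays, and 46.8 to 57.5% of spots were well above background. The mouse Hdac4 probe read 0.28 ± 0.06 in WT and 0.23 ± 0.06 in HDAC4&5 cells (SD, n = 6), and the mouse Hdac5 probe 2.19 ± 0.38 and 3.60 ± 0.62 (log2 difference +1.42 ± 0.27 SE, limma adjusted p = 0.000387). The transgenes were human, so neither mouse probe is a direct check of them. Skeletal muscle markers, summed over 9 genes, lay at 6.81 to 7.85 in WT and 0.99 to 1.20 in HDAC4&5 cells, where Myod1 and Ckm were well above background on no array, so a defining marker of the labelled cell type was absent at the sensitivity of the array. In soleus the same markers lay at 9.64 to 10.4 in Con and 9.32 to 10.4 in db.

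A probe is called detected here when the scanner software found its spot well above background. Of the 43 genes, 20 were detected on every WT array, 15 on every HDAC4&5 array, 20 on every Con array and 19 on every db array. Axin2, Dkk4, Sfrp1, Wnt16, Wnt2b, Wnt3a, Wnt7a and Wnt8a were detected on none of the 19 arrays. Axin2, a feedback inhibitor in the destruction complex, is often used as a read-out of β-catenin activity. Its probe read -7.73 ± 0.38 in WT, -7.50 ± 0.59 in HDAC4&5, -5.62 ± 0.42 in Con and -6.10 ± 0.60 in db, values of a dim spot and not of measured RNA. A further 7 genes were detected on too few arrays to be tested. Wnt9b was detected on 8 arrays (4 WT, 3 HDAC4&5, 1 db), Dkk3 on 5 (1 WT, 1 HDAC4&5, 3 db), Wif1 on 4 (2 Con, 2 db) and Wnt1 on 2 WT arrays. Dkk1, Wnt3 and Wnt8b were each detected on 1 array. A gene entered a comparison only if it was detected on every array of at least 1 of its groups, with outlier-flagged spots set aside.

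**Figure D1:**
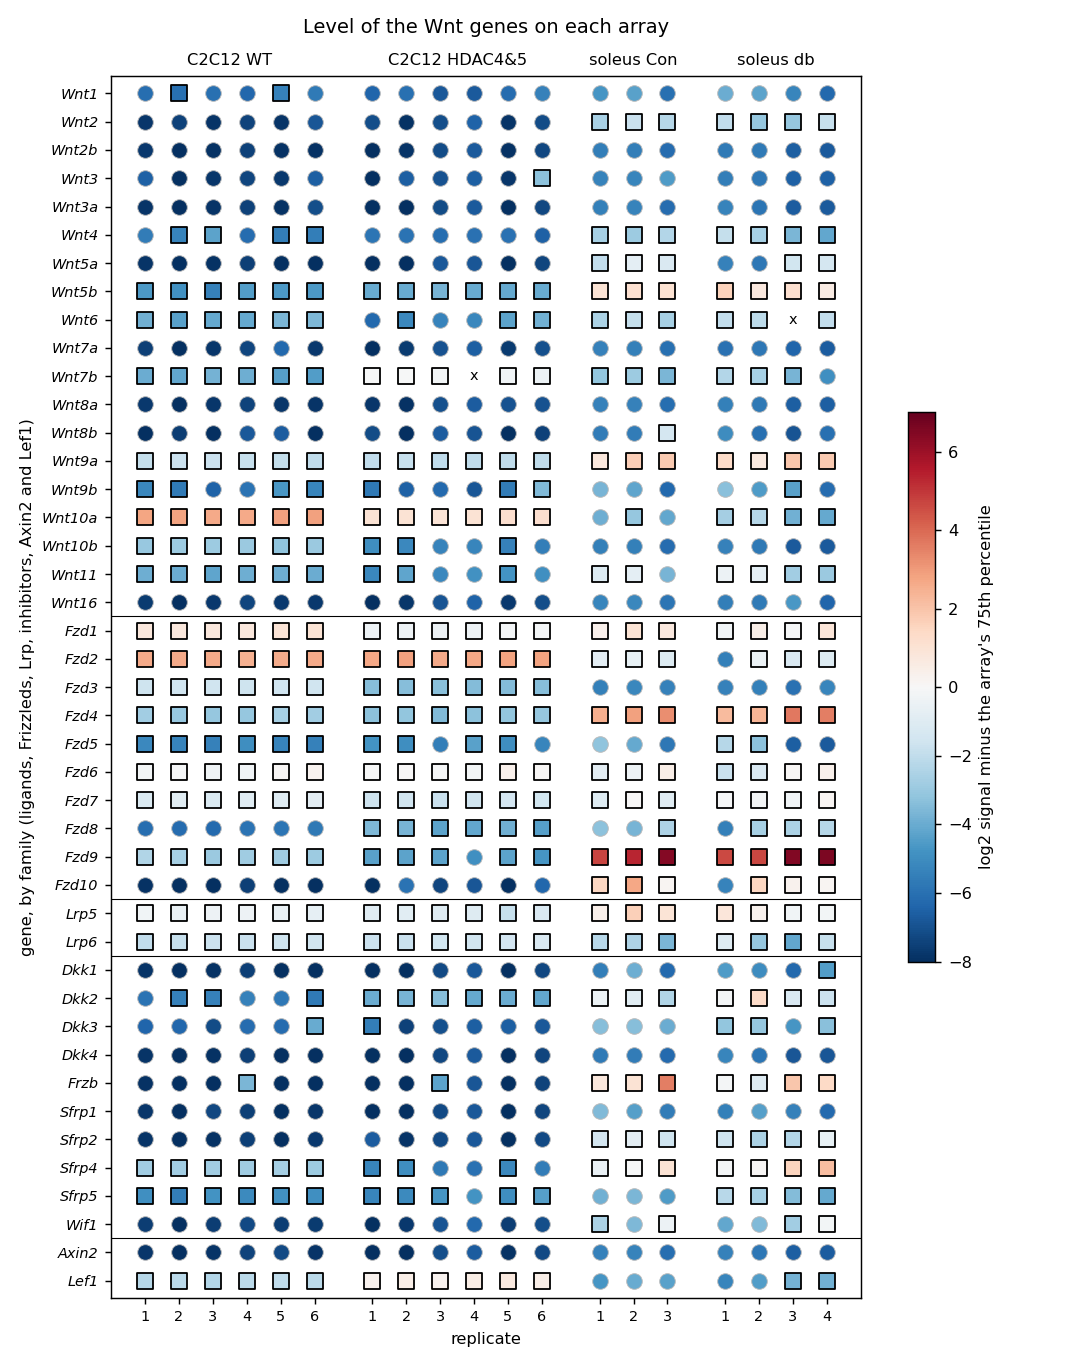
Level of each of the 43 genes (rows) on each of the 19 arrays (columns, by group), as log2 signal relative to the 75th percentile of the array (colour). Squares with a black edge were well above background, circles were not, and a cross is an outlier-flagged spot; probes differ in affinity, so colours are to be read along a row. Axin2, Dkk4, Sfrp1, Wnt16, Wnt2b, Wnt3a, Wnt7a and Wnt8a have no square with a black edge.

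Promoter sequence is shown for 4 genes with large rises or falls in the C2C12 comparison and a promoter in the RefSeq table (29 of the 43). Letters that match the core of the pathway's own TCF/LEF factors or the general E-box can thus be seen beside the values. The E-box pattern leaves its middle bases free and is not specific to the myogenic factors. The 4 are not simply the genes with the largest differences. Fzd8, for example, is not shown, though its difference of +1.98 was larger than that of Dkk2 (+1.70). Each is the 250 bases before the most upstream RefSeq start, 5′ to 3′ on the strand of the gene, in GRCm38.p6, another build than that of the probe positions. Capitals mark a TCF/LEF core (CTTTGA or CTTTGT) or an E-box (CANNTG), searched on both strands.
Lef1, chr3:131110047-131110296, plus strand: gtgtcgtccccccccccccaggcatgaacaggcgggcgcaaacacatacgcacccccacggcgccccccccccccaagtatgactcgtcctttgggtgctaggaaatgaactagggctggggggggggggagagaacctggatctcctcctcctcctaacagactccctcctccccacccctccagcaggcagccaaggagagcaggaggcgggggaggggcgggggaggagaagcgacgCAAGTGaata
Dkk2, chr3:132085042-132085291, plus strand: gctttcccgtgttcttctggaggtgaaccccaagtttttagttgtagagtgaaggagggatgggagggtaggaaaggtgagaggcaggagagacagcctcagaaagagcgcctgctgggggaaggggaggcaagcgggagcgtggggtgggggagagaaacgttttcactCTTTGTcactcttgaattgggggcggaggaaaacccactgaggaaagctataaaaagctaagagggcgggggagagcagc
Wnt10b, chr15:98778151-98778400, minus strand: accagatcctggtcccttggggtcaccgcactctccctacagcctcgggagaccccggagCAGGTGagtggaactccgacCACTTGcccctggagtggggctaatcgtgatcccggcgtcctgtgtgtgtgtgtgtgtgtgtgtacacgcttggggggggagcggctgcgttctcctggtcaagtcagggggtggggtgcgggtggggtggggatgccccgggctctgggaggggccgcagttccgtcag
Fzd9, chr5:135251048-135251297, minus strand: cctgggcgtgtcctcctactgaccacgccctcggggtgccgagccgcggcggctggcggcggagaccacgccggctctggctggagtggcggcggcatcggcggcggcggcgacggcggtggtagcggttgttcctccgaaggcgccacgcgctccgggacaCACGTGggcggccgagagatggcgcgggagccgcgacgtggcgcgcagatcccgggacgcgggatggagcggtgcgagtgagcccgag
Lef1 held 1 E-box, Dkk2 held 1 TCF/LEF core and no E-box, Wnt10b held 2 E-boxes and Fzd9 held 1. The E-box is common, at 66.2% of all 32851 windows of this length and 18 of 29 here, and a TCF/LEF core stood in 27.6% of all windows and 7 of 29 here. The longer motif of the muscle factor MEF2 stood in 1.70% of all windows and 0 of 29 here, which says only that these letters are not in these windows. G and C made up 66.4, 55.6, 66.8 and 76.4% of the 4 sequences, in the order printed.

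The first comparison asked how the 43 genes differed between HDAC4&5 and WT myoblasts. Wnt7b, Lef1, Fzd8, Dkk2 and Wnt5b were higher in HDAC4&5 cells, by 0.79 to 3.92 on the log2 scale, and Sfrp4, Wnt10b, Fzd3, Wnt10a and Fzd9 were lower, by 1.70 to 2.66. Of 22 genes tested, 17 passed an adjusted p of 0.05 in limma, 6 of them higher and 11 lower. The background was wide, since 69.3% of all 14104 genes tested passed, 36.5% higher and 32.8% lower. In 15 of the 22 the groups did not overlap on any array, as in 54.5% of all genes tested. The median log2 difference was -0.24 over the 22 and 0.05 over all genes. The filter also let in genes detected on every array of 1 group alone, which favours genes that differ. Among the 13 genes detected on every array of both groups 10 passed, against 8573 of 12351 over all genes. Fewer cells of a type and less RNA per cell cannot be told apart in such bulk samples. All 17 differences kept their sign within each of the 3 slides, and so did the 5 that did not pass. In 6 arrays against 6 an exact two-sided permutation test cannot go below p = 0.00216. Each of the 15 non-overlapping genes reached that value, as groups without overlap must, so it adds nothing to that count. Under normexp, which draws dim spots together, 11 of the 22 passed, 6 higher and 5 lower, against 7317 of all 14104 genes. It ended 7 of the 17 calls, among them Sfrp4, Wnt10b and Fzd9 of the falls named above. The differences of Dkk2 (1.02), Fzd3 (-0.78), Fzd7 (-0.31) and Fzd8 (1.05) shrank by more than 1.5 times and still passed.

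**Figure D2:**
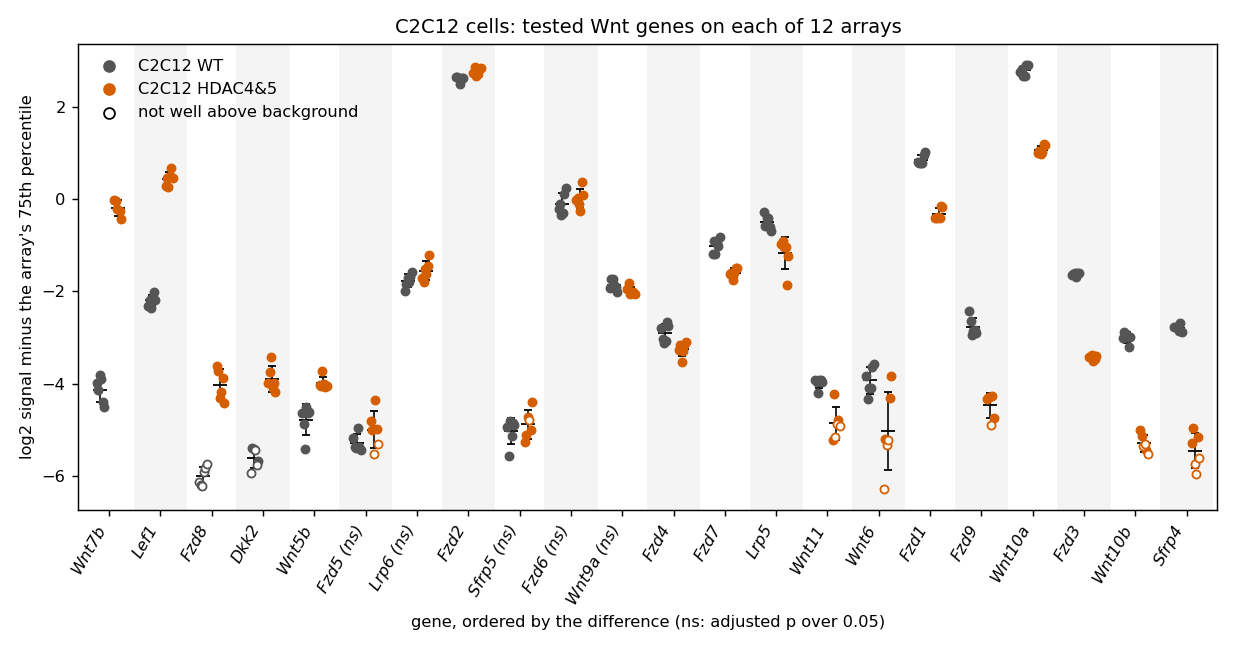
Level of the 22 tested genes on each C2C12 array, as log2 signal relative to the 75th percentile of the array, with mean ± SD for WT and HDAC4&5 (6 arrays each, 5 for Wnt7b in HDAC4&5). Open symbols were not well above background and (ns) marks an adjusted p above 0.05 in limma; genes run from the largest rise (Wnt7b, left) to the largest fall (Sfrp4, right), and the groups stand apart in 15 of them.

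Among the ligands, 7 of 19 were tested, and 2 rose and 4 fell, of which Wnt6 and Wnt11 turned sign under another background correction (normexp). Wnt7b, a ligand that can act through both branches of the pathway, lay between -4.50 and -3.81 (median -4.06) in WT and between -0.44 and -0.03 (median -0.22) in HDAC4&5 cells. Every HDAC4&5 array was thus above every WT array by a wide margin, with 1 flagged HDAC4&5 spot (replicate 4) set aside. The log2 difference was +3.92 ± 0.13 (SE, limma adjusted p = 7.75e-11), a 15.2-fold rise, and its probe lies at chr15:85366495-85366554 of mm9. Within the 3 slides it was 4.03, 3.63 and 4.10.

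Wnt5b, a ligand of the β-catenin-independent branch, lay between -5.41 and -4.50 (median -4.62) in WT and between -4.07 and -3.71 (median -4.03) in HDAC4&5 cells. The groups did not overlap, and the difference of +0.79 ± 0.14 (limma adjusted p = 0.00021) was the smaller of the ligand rises. Its close relative Wnt5a was detected on no array of either C2C12 group, so no difference can be given for it.

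The ligands that fell included both Wnt10 genes, which encode canonical ligands, Wnt10b being known as an inhibitor of fat cell formation. Wnt10b (chr15:98602518-98602577) lay between -3.21 and -2.88 (median -2.98) in WT and between -5.53 and -4.999 (median -5.32) in HDAC4&5 cells. All WT arrays were higher, and 3 of 6 HDAC4&5 spots were no longer above background. The difference was -2.29 ± 0.09 (limma adjusted p = 7.40e-11), and under normexp it shrank to -0.44 and no longer passed (adjusted p = 0.221). Wnt10a (chr1:74850633-74850692) lay between 2.67 and 2.90 (median 2.79) in WT and between 0.98 and 1.19 (median 1.02) in HDAC4&5 cells, far above background on every array. It fell by 1.72 ± 0.06 on the log2 scale, or 3.29-fold (limma adjusted p = 3.10e-11).

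Wnt6, whose probe lies 19.2 kb from that of Wnt10a, ranged from -4.33 to -3.57 in WT and from -6.26 to -3.83 in HDAC4&5 cells, so the groups overlapped. It fell by 1.09 ± 0.33 (limma adjusted p = 0.0104), with 3 of 6 HDAC4&5 spots below detection and within-slide differences of -1.64, -1.17 and -0.47. A second Wnt6 probe was detected on every WT array (mean -4.93) and on no HDAC4&5 array (mean -7.33), so its difference of -2.40 is no exact size. Wnt11, a ligand of the β-catenin-independent branch, ranged from -4.19 to -3.91 in WT and from -5.22 to -4.21 in HDAC4&5 cells, where again 3 of 6 spots were detected. The difference of -0.87 ± 0.14 (limma adjusted p = 0.00011) was larger than the spread of either group, though the highest HDAC4&5 array lay just below the lowest WT array. Under normexp the differences were 0.15 for Wnt6 and 0.25 for Wnt11. Wnt9a, at -1.86 ± 0.11 in WT, differed by -0.13 ± 0.06 and did not pass (limma adjusted p = 0.0822). It passed with the replicate block (adjusted p = 0.0374) and with the slide as a block (0.0391), while its sign turned under normexp (0.074) and over the mean of its probes (0.19), in a range of adjusted p of 0.0374 to 0.601 over all alternatives.

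Frizzled receptors were the family with the most measured members, with 9 of 10 tested, 2 higher and 5 lower in HDAC4&5 cells, though Fzd4 turned sign under normexp and Fzd2 in the authors' table of processed values. Fzd8 was detected on no WT array, where it lay between -6.21 and -5.72 (median -6.01), and on every HDAC4&5 array, where it lay between -4.40 and -3.60 (median -4.02). The rise was at least 3.20-fold (limma adjusted p = 5.60e-08), set against the lowest detected signal of each WT array. Under normexp the log2 difference was 1.05, below the 1.68 of that bound. Fzd2 lay between 2.49 and 2.63 in WT and between 2.66 and 2.85 in HDAC4&5 cells, and its difference of +0.16 ± 0.05 (limma adjusted p = 0.0103) amounted to 1.12-fold. That call was lost after quantile normalization, under normexp and, with the sign turned, when both Fzd2 probes were averaged.

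Fzd3, a receptor known from axon guidance and planar polarity, had the tightest replicates. It lay between -1.68 and -1.59 (median -1.61) in WT and between -3.50 and -3.37 (median -3.42) in HDAC4&5 cells. The fall of 1.81 ± 0.04 on the log2 scale (limma adjusted p = 2.25e-13) was many times the spread of either group, and all 3 probes of the gene fell. Fzd9, at chr5:135724815-135724874, lay between -2.95 and -2.43 (median -2.85) in WT and between -4.88 and -4.26 (median -4.32) in HDAC4&5 cells. It fell by 1.70 ± 0.13 (limma adjusted p = 6.40e-08), with 5 of 6 HDAC4&5 spots still detected. That call was lost under normexp, which gave -0.35 (adjusted p = 0.302).

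Fzd1 lay between 0.77 and 1.01 (median 0.80) in WT and between -0.41 and -0.16 (median -0.40) in HDAC4&5 cells. It fell 2.26-fold, by 1.18 ± 0.07 (limma adjusted p = 4.03e-09), with no overlap. Fzd7, described as a receptor for Wnt7a on satellite cells, ranged from -1.19 to -0.83 in WT and from -1.76 to -1.48 in HDAC4&5 cells, a fall of 0.58 ± 0.07 (limma adjusted p = 1.05e-05). Fzd4, a receptor also used by the non-Wnt ligand Norrin, ranged from -3.12 to -2.67 and from -3.53 to -3.10. Its groups overlapped by a narrow margin, and the fall of 0.35 ± 0.10 passed (limma adjusted p = 0.00589). Fzd5 (+0.28 ± 0.17, limma adjusted p = 0.151) and Fzd6 (+0.12 ± 0.12, limma adjusted p = 0.378) did not pass. Fzd5 passed with the replicate block (adjusted p = 0.0257), over the mean of its probes (0.0279) and with arrays averaged by slide (0.0497), but not with the slide as a block (0.159). With the slide as a block, under which 77.0% of all genes passed, Fzd6 reached an adjusted p of 0.0492, in a range of 0.0492 to 0.81 over all alternatives. Fzd10 was detected on no C2C12 array.

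Frizzled genes share coding sequence, and the probes of Fzd2 and Fzd7 show how close some of these spots are. Capitals mark bases that are identical between both 60-base probes, in an overlap of 50 bases with 42 identical (84.0%).
Fzd2, chr11:102467613-102467672 (mm9): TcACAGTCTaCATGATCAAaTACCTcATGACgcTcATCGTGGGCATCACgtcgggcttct
Fzd7, chr1:59541367-59541426 (mm9): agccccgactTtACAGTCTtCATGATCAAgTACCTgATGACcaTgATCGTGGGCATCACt
The Fzd2 probe printed is the bright one used here, whereas the Fzd7 probe printed is the dim one of its gene, at -4.95 in WT. The Fzd7 values above came from another probe, at chr1:59543192-59543251.

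The co-receptors are single-pass proteins of the LDL receptor family. Lrp5 ranged from -0.69 to -0.28 (median -0.50) in WT and from -1.85 to -0.90 (median -1.04) in HDAC4&5 cells, without overlap. It fell by 0.68 ± 0.14 on the log2 scale (limma adjusted p = 0.00102), and 1 HDAC4&5 array (replicate 5) lay well below the others of its group. Lrp6 differed by +0.22 ± 0.10 and did not pass (limma adjusted p = 0.0741), but passed with the replicate block (adjusted p = 0.00414) and with the slide as a block (0.00392). It did not pass with arrays averaged by slide (0.215), in a range of 0.00105 to 0.845 over all alternatives.

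Of the 10 secreted inhibitors, 3 were tested in C2C12 cells. Dkk2, a ligand of Lrp5 and Lrp6 that can inhibit or support the pathway, lay between -5.92 and -5.39 (median -5.55) in WT and between -4.18 and -3.41 (median -3.97) in HDAC4&5 cells. It rose 3.25-fold, by 1.70 ± 0.14 (limma adjusted p = 1.11e-07), with no overlap and with 3 of 6 WT spots detected. Sfrp4, a decoy with a Frizzled-like ligand-binding domain, moved the other way. It lay between -2.88 and -2.69 (median -2.78) in WT and between -5.94 and -4.96 (median -5.44) in HDAC4&5 cells, 3 of which were detected. The fall of 2.66 ± 0.14 (limma adjusted p = 2.24e-09) came from a probe at chr13:19724488-19724547, and under normexp it shrank to -0.49 and no longer passed (adjusted p = 0.196). Sfrp5 differed by +0.15 ± 0.16 (limma adjusted p = 0.406), and Frzb was detected on 1 array of each group, at -3.66 in WT replicate 4 and -4.25 in HDAC4&5 replicate 3.

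Lef1, the nuclear factor that pairs with β-catenin, is itself a gene that the pathway can activate. Its level lay between -2.36 and -2.004 (median -2.18) in WT and between 0.27 and 0.67 (median 0.45) in HDAC4&5 cells. All HDAC4&5 arrays were higher, by +2.63 ± 0.08 (limma adjusted p = 6.00e-12), a 6.19-fold rise seen as 2.60, 2.63 and 2.65 within the 3 slides. The probe lies at chr3:130927036-130927095, 915.3 kb from that of Dkk2, and a second Lef1 probe differed by 2.71 in the same direction. The remaining Lef1 probe was detected on no C2C12 array (means of -7.58 in WT and -7.32 in HDAC4&5 cells).

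Several measurements moved with these differences. Of the 9 skeletal muscle markers all passed, 8 lower in HDAC4&5 cells and Myh7 higher. The myogenic factor Myod1 was at least 261-fold lower, Myog differed by -9.67 ± 0.15 and the intermediate filament gene Des by -8.45 ± 0.19 on the log2 scale. Epithelial markers, summed over 5 genes, lay at 1.78 to 2.07 in WT and -2.01 to -1.63 in HDAC4&5 cells, where Krt19 differed by -7.65 ± 0.28 and Krt8, the other marker tested, by +0.54 ± 0.09. Fibroblast markers, summed over 6 genes, lay at 6.25 to 7.14 and 6.43 to 6.63, with 3 higher and 2 lower. All 6 adipocyte and 5 endothelial markers stayed out of the test for want of signal. The part of these shifts in the Wnt pathway values was not tested.

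The rest of the pathway was read from 93 genes in 7 lists, of which 65 were tested in C2C12 cells and 44 passed, 22 in each direction, with a median log2 difference of -0.03. That share was close to the 69.3% of all genes. In the list for secretion and processing of ligands 2 of 3 tested genes fell, Trabd2b (-3.72 ± 0.08), a protease that cuts Wnt proteins, and Porcn (-1.21 ± 0.07), which attaches their lipid. All 3 tested R-spondin receptors and partners rose, namely Lgr6 (1.58 ± 0.13), Znrf3 (0.91 ± 0.11) and Lgr4 (0.64 ± 0.15), while no R-spondin was tested. Znrf3 is a ligase that removes Frizzled receptors from the cell surface. Of the other Wnt receptors and planar polarity genes 3 of 10 rose and 4 fell, with Mcam (-3.60 ± 0.11), Prickle1 (-2.51 ± 0.06), Celsr1 (2.45 ± 0.09) and the Dkk co-receptor Kremen1 (-1.59 ± 0.10) the farthest from 0.

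Among other secreted or membrane modulators 1 of 6 rose and 3 fell, with Apcdd1 (3.12 ± 0.07), a membrane inhibitor that the pathway can induce, and Igfbp4, which was at least 2.27-fold lower. Of 17 tested genes for Dishevelled and the destruction complex 4 rose and 3 fell, and 10 did not pass. Dvl1 (-1.34 ± 0.07) and Dvl2 (0.78 ± 0.13), which relay the signal from Frizzled, moved in opposite directions. Of 17 genes for β-catenin and its nuclear partners 5 rose and 7 fell. Tcf7l2 (1.94 ± 0.09) rose as Lef1 did, whereas its relative Tcf7 (-1.48 ± 0.26) and the β-catenin inhibitor Ctnnbip1 (-1.89 ± 0.05) fell. All 9 tested genes of the target list passed, 6 higher, among them Ccn5 (3.49 ± 0.06) and Myc (0.93 ± 0.08), and 3 lower, among them Cd44 (-2.26 ± 0.11) and Jun (-1.11 ± 0.06). These targets answer to many other signals as well. Under quantile normalization, normexp and the authors' table, the signs of the genes that passed were kept except for Csnk1d, Dact1, Dkkl1 and Tmem88. At least 1 of these settings ended the call, with the sign kept, of Axin1, Ccn4, Chd8, Ctnnb1, Igfbp4, Ppard, Ptgs2, Ryk, Tle4, Tnks and Vangl2, and 1 of the modulators had no value in the authors' table.

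**Figure D3:**
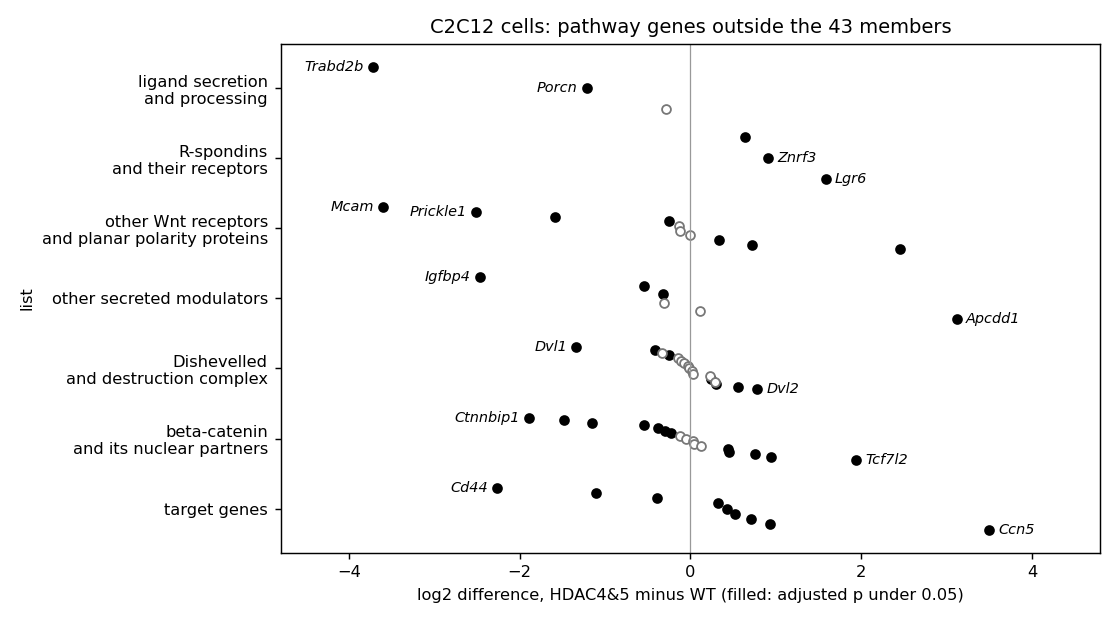
Log2 difference (HDAC4&5 minus WT) of the pathway genes outside the Wnt, Frizzled, co-receptor and inhibitor families, by list; each point is 1 tested gene and filled points passed an adjusted p of 0.05 in limma. Of 65 tested genes 22 passed above 0 and 22 below, and the list of targets had 6 above and 3 below.

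The second comparison asked whether the same genes differed in soleus between obese db mice and their littermates. None of 23 genes tested passed in limma, and 0 passed an unadjusted p of 0.05, in limma or in the methods' t-test. The background was low here too, with 0.0077% of 12989 genes passing the adjusted p and 6.34% the unadjusted one. In 0 of the 23 did the groups stand apart on every array, against 10.1% of all genes tested. The arrays of a group differed widely, with a median SD over the 23 genes of 0.56 in Con and 1.01 in db, against 0.15 and 0.20 for the genes tested in WT and HDAC4&5 cells. Data were simulated for 4 arrays against 3 with the residual SD of each of 10601 genes, as independent noise without a slide effect. There 46.5% of genes changed by 2 on the log2 scale were recovered, so many differences of that size would go undetected. The share for the 23 genes alone was not simulated.

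Lrp5 had the smallest p. It read 0.41, 1.66 and 0.94 on the Con arrays and 0.82, 0.30, -0.27 and -0.24 on the db arrays. Most db arrays were lower but replicate 1 lay among the controls, and the difference was -0.85 ± 0.42 (limma adjusted p = 0.848, exact permutation p = 0.114). Fzd7 read -1.05, 0.03 and -0.96 in Con and -0.11, -0.15, -0.31 and 0.13 in db. The db arrays were close together and within the range of the controls or just above it, at +0.55 ± 0.34 (limma adjusted p = 0.933).

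Wnt5a read -1.97, -0.81 and -1.22 on the Con arrays and -5.39, -5.79, -1.55 and -1.40 on the db arrays. The first pair of db spots, both on slide 1, were not above background, while the other pair, on slide 2, lay among the controls. The difference was -2.20 ± 1.16 (limma adjusted p = 0.872), made of -4.20 within slide 1 and -0.26 within slide 2. With the slide as a block and without Con replicate 3, which takes away the only control of slide 2, it became -4.20 ± 0.43 (adjusted p = 0.0200). Over the full arrays with that block it was -2.62 ± 0.77 (adjusted p = 0.171), and leaving out 1 array at a time gave adjusted p-values of 0.0200 to 0.356. A second Wnt5a probe was detected on no soleus array and differed by -0.25, so all these values rest on 1 probe.

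Fzd10 read 1.499, 2.71 and 0.11 in Con and -5.34, 1.49, 0.29 and 0.12 in db. A single db spot (replicate 1), not above background, carried the difference of -2.30 ± 1.52 (limma adjusted p = 0.947), and the values within slides were -4.03 and 0.09. A second, dimmer Fzd10 probe was detected on every soleus array and differed by +0.25. Fzd2 was likewise below detection on db replicate 1 alone, at -5.44, and differed by -1.20 ± 1.097 (limma adjusted p = 0.952).

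Sfrp5, an inhibitor best known from adipose tissue, was detected on no Con array, where it read -3.83, -3.66 and -4.54, and on every db array, at -2.19, -2.66, -3.47 and -4.11. The faintest detected signal of any probe lay at -3.97 to -3.30 on Con arrays and lower, at -4.59 to -3.69, on db arrays. The db spot at -4.11 was thus detected though dimmer than undetected Con spots, and the contrast in detection alone shows no rise. Replicates 1 to 3 of db lay above the controls and replicate 4 among them, and the difference was +0.91 ± 0.50 and at least 1.34-fold (limma adjusted p = 0.893). Its sign turned under normexp (-0.038). Frzb, a secreted decoy of the Sfrp family and named after its values were seen, read 0.78, 1.03 and 3.56 in Con and -0.13, -1.01, 1.95 and 1.40 in db. Its difference of -1.24 ± 0.90 (limma adjusted p = 0.948) was -1.47 and -1.88 within the slides. With the slide as a block it was -1.64 ± 0.28 (adjusted p = 0.0710), against 0.308% of all genes passing under that block, and without db replicate 1 it passed, at -1.90 ± 0.24 (adjusted p = 0.0186, against up to 0.212 when another array was left out).

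Dkk2 differed by +0.84 ± 0.78 and Sfrp4 by +0.77 ± 0.66, and neither passed (limma adjusted p = 0.952 for both). Over the 23 genes, 15 differences had the same sign on both slides and 9 genes moved by more than 1 between slides, from -2.38 for Wnt11 to 2.14 for Frzb and 2.10 for Wnt5a. Lef1 was detected on no Con array (-4.72, -4.02 and -4.35) and on the slide 2 arrays of db (-3.77 and -3.84, against -5.31 and -4.48 on slide 1), and was not tested.

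**Figure D4:**
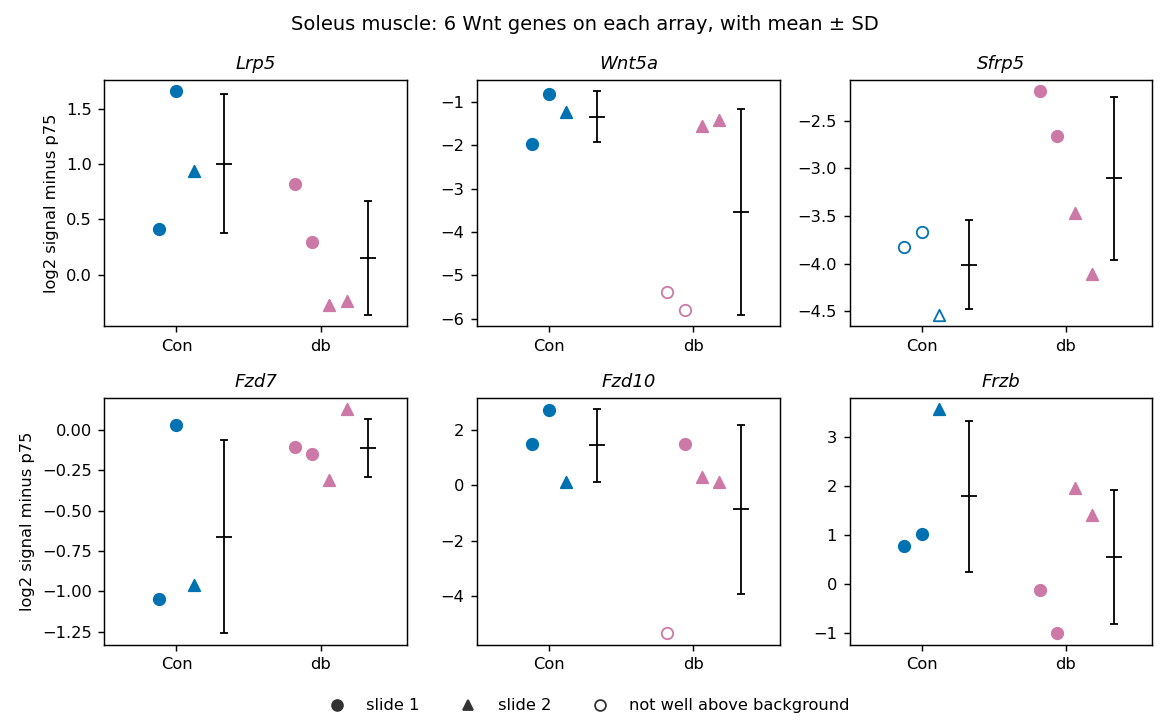
Level of Lrp5, Wnt5a, Sfrp5, Fzd7, Fzd10 and Frzb on each soleus array, as log2 signal relative to the 75th percentile of the array, with mean ± SD for Con (3 arrays) and db (4 arrays). Circles are slide 1, triangles slide 2 and open symbols were not well above background; the low db values of Wnt5a (-5.39 and -5.79) both lie on slide 1, and that of Fzd10 (-5.34) is a single array.

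No cell type marker passed the adjusted p in limma between the soleus groups, though some summed levels stood apart. Summed endothelial markers lay at 3.77 to 4.57 in Con and 2.67 to 3.74 in db, and adipocyte markers at 6.74 to 7.46 and 5.78 to 6.55, neither overlapping. The adipocyte sum followed its bright members, of which Cfd differed by -1.91 ± 0.59, while the median over the 6 genes was +0.63 and Lep differed by +3.62 ± 0.41 (limma adjusted p = 0.126). Fibroblast markers lay at 8.52 to 8.97 and 7.28 to 8.78, and macrophage markers at 5.16 to 6.93 and 5.38 to 6.83. Each of the 6 adipocyte, 5 endothelial, 6 fibroblast and 5 macrophage markers was detected on at least 1 array of both groups. Their part in the values of the Wnt genes was not tested. Of the 60 genes of the pathway lists tested in soleus 0 passed in limma, and 4 had an unadjusted p under 0.05, a share close to the 6.34% of all genes, among them the targets Fgf9 (+1.20 ± 0.38, adjusted p = 0.611) and Jun (-1.26 ± 0.42, adjusted p = 0.631).

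The third comparison set soleus of the Con mice against WT myoblasts, to show which of these genes belong to whole muscle and which to the cultured cells. It uses the same WT and Con arrays as the comparisons above. Wnt5a, Wnt5b, Wnt2, Fzd4, Fzd9, Fzd10, Frzb, Dkk2, Sfrp2 and Sfrp4 were higher in soleus, while Wnt10a, Wnt10b, Fzd2, Fzd3 and Lef1 were higher in the myoblasts. Of 27 genes tested 23 passed in limma, 17 higher and 6 lower in soleus, where 66.6% of 14997 genes passed, 33.2% higher and 33.5% lower. The median difference was 1.49 over the 27 and -0.04 over all genes. In 23 of the 27 the groups did not overlap, as in 70.6% of all genes. Each of the 23 had an exact permutation p of 0.0119, the smallest that 6 against 3 arrays allow, which groups without overlap always give. Tissue and slide cannot be told apart. Dim probes lie higher in soleus arrays than in C2C12 arrays, as the Axin2 values above show, so folds against an undetected group are bounds. These bounds hold for the main setting alone. Over the alternatives the smallest log2 difference was 4.95 for Fzd10, 3.08 for Wnt5a, 2.745 for Sfrp2 and 2.36 for Wnt2. The main bounds were 7.15, 4.38, 4.36 and 3.48. The falls of Fzd3, Lef1 and Wnt10b also shrank below their bounds, to -0.87, -0.33 and -0.07. The 17 include Sfrp5, which was detected on no Con array and for which no rise is shown.

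Of the ligands all 10 tested passed, 8 higher in soleus. Wnt5a was detected on no WT array (-8.34 to -7.51) and on every Con array, a difference of at least 20.8-fold (limma adjusted p = 9.38e-07). That rests on 1 probe, since the second Wnt5a probe was detected on no array of either group. Wnt2 was at least 11.2-fold higher, from -7.85 to -6.85 in WT and -2.62 to -1.76 in Con (limma adjusted p = 7.02e-06). Wnt5b lay at -4.77 ± 0.34 in WT and 1.08 ± 0.06 in Con, 57.4-fold higher, and Wnt9a was 10.4-fold higher. Smaller differences were found for Wnt4 (+2.82 ± 0.67), Wnt11 (+1.79 ± 0.60), Wnt6 (+1.49 ± 0.35) and Wnt7b (+0.83 ± 0.26). Wnt4 and Wnt11 no longer passed without Con replicate 1 (adjusted p = 0.124 and 0.0586) or Con replicate 2 (0.115 and 0.0591), and without Con replicate 3 the Wnt11 difference was 3.05. Wnt10a went the other way, from 2.67 to 2.90 in WT to -4.18 to -3.10 in Con, a log2 difference of -6.59 ± 0.34 (limma adjusted p = 7.67e-08), where 1 of 3 Con spots was detected. Wnt10b was detected on no Con array and was at least 1.45-fold lower.

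The receptors were divided. Fzd9, whose gene also fell in HDAC4&5 cells, lay between -2.95 and -2.43 in WT and between 4.75 and 6.44 in Con, a 349-fold difference (limma adjusted p = 3.96e-08), and saturated the scanner on 1 db array. Fzd10 (chr5:129109798-129109857) was at least 142-fold higher in soleus with the probe used (limma adjusted p = 6.82e-07). A second, dimmer Fzd10 probe read -6.88 in WT, detected on no array, and -1.98 in Con, a difference of 4.90. Fzd4 was 57.6-fold higher. Fzd3 (at least 3.75-fold) and Fzd2 (11.3-fold) were lower in soleus. Fzd1 (-0.14 ± 0.28), Fzd5 (+0.65 ± 0.56), Fzd6 (-0.03 ± 0.32) and Fzd7 (+0.30 ± 0.43) did not pass. Lrp5 was higher by 1.49 ± 0.46 (limma adjusted p = 0.0163). Lrp6 was lower by 1.16 ± 0.33 with the probe used, but its second probe read -5.22 in WT and -0.36 in Con, so the direction for Lrp6 depended on the probe. Without Con replicate 3 the first probe differed by -0.58.

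Of the 5 tested inhibitors, Frzb, Sfrp2, Dkk2 and Sfrp4 were higher in soleus. Frzb, at chr2:80252582-80252641, read 0.78 to 3.56 in Con and was detected on 1 of 6 WT arrays, at -3.66. It passed (limma adjusted p = 0.000571), but with the other 5 WT spots not above background the fitted difference of +9.48 ± 1.67 is no exact size, and it was 5.86 under normexp. Sfrp2, a secreted decoy expressed by fibroblasts, was at least 20.6-fold higher (-8.19 to -7.50 in WT, -1.68 to -0.87 in Con). Sfrp4 was 8.57-fold higher. Dkk2 was 17.3-fold higher, but with 3 of 6 WT spots detected that is no exact size. Its log2 difference of 4.11 was 2.35 at the smallest over the alternatives. Sfrp5 was detected on every WT array and on no Con array, so its fitted value of +0.92 ± 0.34 (limma adjusted p = 0.0349) lies between dim soleus spots and detected WT spots and shows no rise. It turned sign after quantile normalization. Lef1 was at least 2.52-fold lower in soleus (limma adjusted p = 0.000113). Quantile normalization moved the median of all genes to -0.30 and left 19 of the 23 past the threshold, without Sfrp5, Wnt11, Wnt6 and Wnt7b. Normexp moved it to 0.23 and left 20, without Lef1, Lrp6 and Wnt10b. Adipocyte markers lay at -5.11 to -3.20 in WT and 6.74 to 7.46 in Con, and endothelial markers at -5.82 to -5.03 and 3.77 to 4.57, with all 5 endothelial markers detected on no WT array. Their part in the differences was not tested.

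**Figure D5:**
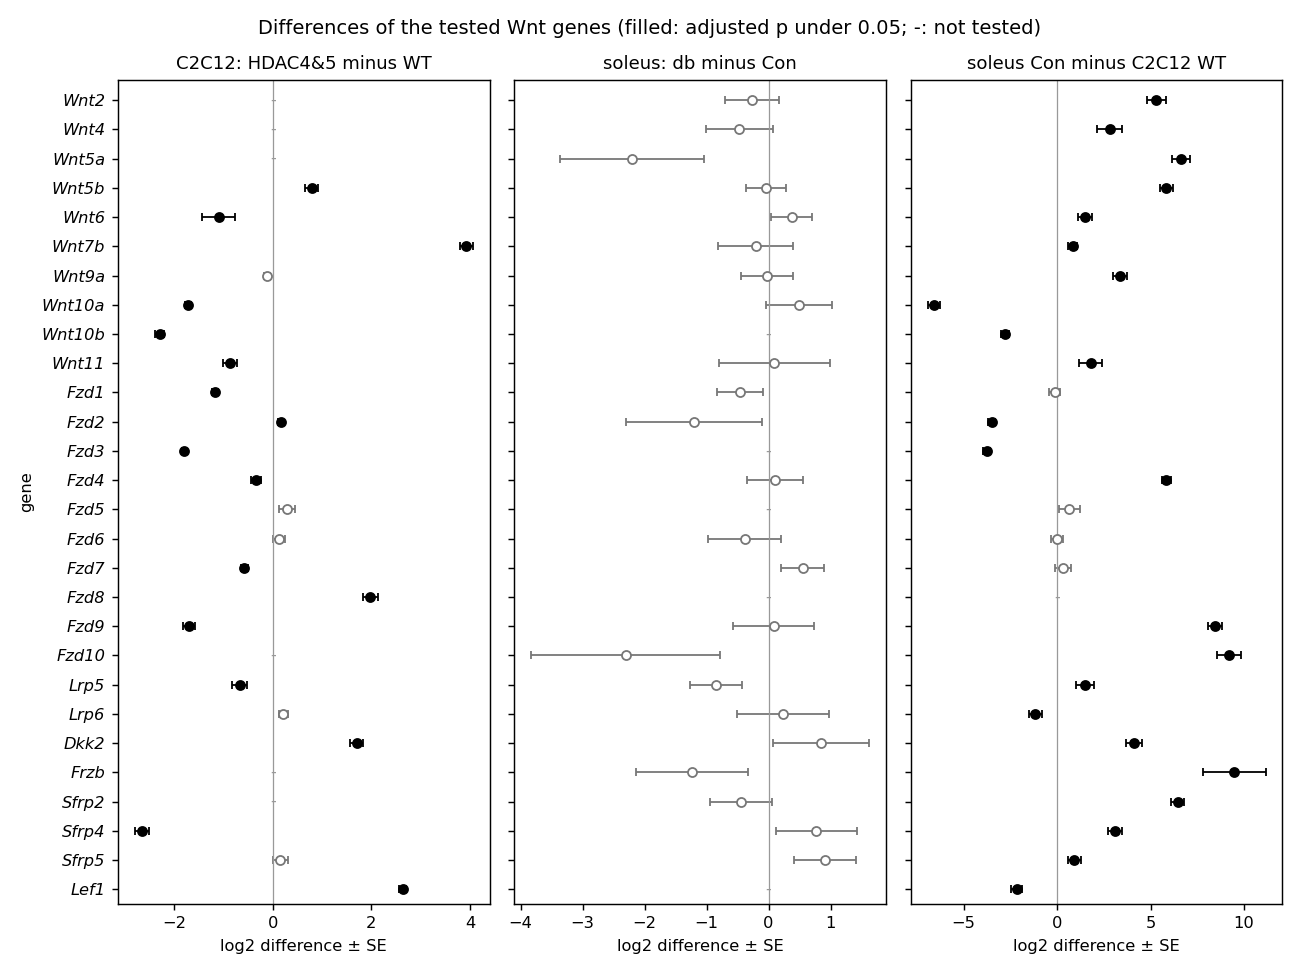
Log2 difference ± SE of each tested gene in the 3 comparisons (HDAC4&5 minus WT, db minus Con, Con minus WT), by family. Filled points passed an adjusted p of 0.05 in limma and a dash marks a gene not tested; 17 of 22, 0 of 23 and 23 of 27 points are filled. Comparisons share the WT arrays or the Con arrays.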

How the data were processed

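Single-colour Agilent whole mouse genome arrays, hybridised with label made from 100 ng of RNA, were read per the file headers with Agilent Feature Extraction 9.5.1.1 (build mm9, not named in the files of the first soleus slide). The authors deposited per-spot intensity values (processed signal) and a table of values on a linear ratio scale, whose centring is unknown and whose soleus columns did not all match the arrays they name; it served as an alternative, by group only. Outlier-flagged spots were set missing, spots of a probe averaged, and log2 processed signal taken relative to the 75th percentile of each array. Symbols were updated through RefSeq (27198 of 41174 probes named; none of the 60 probes here changed, and 59 of them carry the same name in the soleus files). Each gene was read by its brightest probe and tested if well above background on every unflagged array (at least 2) of 1 group. The genes and lists were chosen with earlier results of these data known.

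Tests were fitted over all genes in limma 3.58.1 (R 4.3.3) with Benjamini-Hochberg adjustment and a threshold of 0.05, groups coming from the labels. The soleus against C2C12 fit took slide as a random block (consensus correlation 0.67), so its differences can depart a little from those of the means. "At least" folds set the bright group against the dim probe itself or, where brighter, the faintest detected signal of that array. They hold for the main setting alone. Named array by array were genes past the adjusted p without overlap, the 8 farthest from 0 and, in soleus, the 5 with the smallest p. Replicate numbers were checked as pairs: arrays with the same number deviated together (r of 0.314 to 0.683 in C2C12, 0.491 to 0.752 in soleus), and so did other arrays of the same slide, so the numbers pair arrays that share a slide. Scripts were tested on simulated data. Alternatives were normalization, background, filter, probe choice, blocks, omitted arrays and the methods' t-test. The number of arrays limits the precision. Exon annotation in mm9 was not used here.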

Additional observations from a re-analysis of the deposited data

Results flagged for a closer look

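In 4 of 53 gene and group pairs with 4 to 6 arrays, 1 array stood apart from the others by more than Dixon's 95% critical value for a gap over the range. Chance flags about 1 in 20 such groups, or 2.65 here. All were C2C12 arrays. Fzd2 read 2.494 on WT replicate 4 against 2.614 to 2.634 on the others. Wnt11 read -4.194 on WT replicate 3 against -3.961 to -3.912. Lrp5 read -1.853 on HDAC4&5 replicate 5 against -1.228 to -0.904, and Wnt5b read -3.712 on HDAC4&5 replicate 3 against -4.071 to -4.010.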

How the results depend on the processing

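Of 17 genes past the adjusted p in C2C12 cells, 11 remained in number under normexp (offset 50; 6 higher, 5 lower; Fzd2, Fzd4, Fzd9, Sfrp4, Wnt10b, Wnt11 and Wnt6 lost, Lrp6 gained) and 10 under the stricter filter (6 lower), which tested 13. A fold of at least 1.5 left 14. Averaging the arrays of 1 group and slide, chosen after seeing the data, left 15 (Fzd2, Fzd4 and Wnt6 lost, Fzd5 gained). The paired fit with the replicate block called 20 (Fzd5, Lrp6 and Wnt9a gained) and the slide block 20, and the replicate block called 0 in soleus. Of all 14104 genes tested in C2C12 cells, 7317 passed under normexp and 5357 with the fold. There the replicate block called 10743 and the slide block 10859. Soleus calls were 0 except under the slide block, chosen after seeing the data, without Con replicate 3 (1, lower, Wnt5a) or without db replicate 1 (1, lower, Frzb), a range of 0 to 1. Between soleus and WT, no filter called 37 of 43 (31 higher) and the stricter filter 10 of 13 (8 higher, 2 lower), both through the number of genes tested. Over all genes these settings called 20299 of 27709 and 7181 of 11057. There normexp left 3 lower (Lef1, Lrp6 and Wnt10b lost), quantile normalization 19 in all, and leaving out 1 Con array 20 to 25 (14 to 18 higher, 6 to 7 lower), where Sfrp5, Wnt11 and Wnt4 were lost without replicate 1 or replicate 2 and Fzd5 and Fzd6 gained without replicate 3. Signs turned in C2C12 for Fzd2 (-0.28 over the mean of probes, -0.020 in the deposited table), Fzd4 (0.14, normexp), Fzd6 (-0.057, deposited table), Wnt11 (0.25) and Wnt6 (0.15, both normexp) and Wnt9a (0.074, normexp, and 0.19, mean of probes). They turned in soleus for Wnt5a (0.12, deposited table) and Sfrp5 (-0.038, normexp), and between soleus and WT for Lrp6 (1.84, mean of probes) and Sfrp5 (-0.033, quantile). The cause was not tested, beyond the offset, which by construction draws dim signals together. Single-gene values kept direction and side of the threshold in 246 of the C2C12, 123 of the soleus and 180 of the cross-material refits. In the other C2C12 refits the sign turned in 8, and with the sign kept a call was gained in 11 and lost in 11. The sign turned in 2 soleus refits and a call was gained in 1, and across materials the sign turned in 2 and a call was lost in 12. No soleus gene passed in the main fit, so staying on that side of the threshold says little there. Dim signal over background limits Wnt6, Wnt11, Wnt10b, Sfrp4, Fzd5 and Fzd8.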

Other observations

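Pairs of these genes lie close together in the mouse genome. Probes of 6 pairs were within 1 Mb of each other in mm9, and in both pairs where each gene passed in C2C12 cells the genes moved in the same direction. Wnt10a and Wnt6 (19.2 kb apart on chromosome 1) both fell in HDAC4&5 cells, and Dkk2 and Lef1 (915.3 kb apart on chromosome 3) both rose. In the other pairs (Wnt1 with Wnt10b, Wnt3 with Wnt9b, Wnt3a with Wnt9a, Dkk4 with Sfrp1) at least 1 gene was not tested. With so few pairs nothing about neighbourhood can be drawn from this.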
